A study of Mus musculus with 3 samples.

Results

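The 10 genes described here encode the negative feedback and the transcriptional output of canonical Wnt signalling, measured in mouse embryonic stem cells exposed to BMP4 or to its antagonist noggin. They were Axin2, Notum, Znrf3, Rnf43, Apcdd1, Nkd1, Sp5, Tcf7, Tcf7l1 and Ctnnb1, chosen by name, and all probe sets that the platform annotation pairs with them were taken. That gave 22 of the 45101 probe sets on the array, for 9 of the 10 genes. Tcf7 was paired with none in the annotation used here and was not analysed. The cells were R1, an established mouse embryonic stem cell line kept undifferentiated. One array held RNA from cells given BMP4 at 20 ng/ml for 4 h, 1 held RNA from cells given noggin at 100 ng/ml for 4 h, and 1 held RNA from untreated cells, for which no time was given. BMP4 is a bone morphogenetic protein that acts through SMAD transcription factors, and noggin binds BMPs outside the cell and blocks them. With 1 array per condition no value has a replicate error, no test between conditions was possible, and every difference below describes these arrays.

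In canonical Wnt signalling, a secreted Wnt protein binds a Frizzled receptor and its LRP co-receptor, and this stops a cytoplasmic destruction complex built on Axin and APC from marking beta-catenin for degradation. Beta-catenin then enters the nucleus, binds TCF/LEF factors on DNA and switches on target genes, several of which encode inhibitors of the pathway itself, so that the signal limits its own strength. In mouse embryonic stem cells the pathway is known for favouring self-renewal, in large part by lifting the repression that Tcf7l1 places on pluripotency genes.

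Values are log2 expression values, so a difference of 1 is a 2-fold difference. A value was called above the floor when it lay over 3.44, the median of all values on the 3 arrays. Where a gene had several probe sets, the one of highest mean stood for it. Of the 18193 genes with a probe set of their own, 11594 were above the floor on at least 1 array. Of the 9 measured genes, 7 were above it, namely Axin2, Notum, Znrf3, Apcdd1, Nkd1, Tcf7l1 and Ctnnb1. Rnf43 and Sp5 were below it on all 3 arrays. Of the 22 probe sets, 13 were above the floor and 9 below, so fewer than all members could be measured. A difference of at least 1.2-fold, 0.263 on the log2 scale, was used as the limit of size. Levels of different probe sets are not set against each other, since probe sets differ in how brightly they bind.

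The median of all values, which RMA makes nearly equal, was 3.45 with BMP4, 3.43 with noggin and 3.45 without treatment. The arrays differed in their spikes and in the 3′ minus 5′ values of control transcripts, a measure of RNA quality. That value was 0.21 with BMP4, 0.37 with noggin and 0.32 without treatment for Actb, 1.38, 1.88 and 1.51 on the same arrays for Tfrc, and 0.09, 0.10 and 0.06 for Gapdh. All 10 markers of undifferentiated embryonic stem cells were above the floor on every array, with medians of 11.16 on the BMP4, 11.04 on the noggin and 11.08 on the untreated array. Pou5f1 measured 11.53, 11.31 and 11.31 in that order, Nanog 11.15, 10.95 and 11.00, and Sox2 11.16, 11.12 and 11.16. Among 13666 probe sets of 5139 genes that have several, differences scattered around the gene's mean. The SD was 0.13 in BMP4 minus untreated, 0.11 in noggin minus untreated and 0.16 in BMP4 minus noggin. That SD is a technical scale within these arrays and not an error between cultures.

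**Figure D1:**
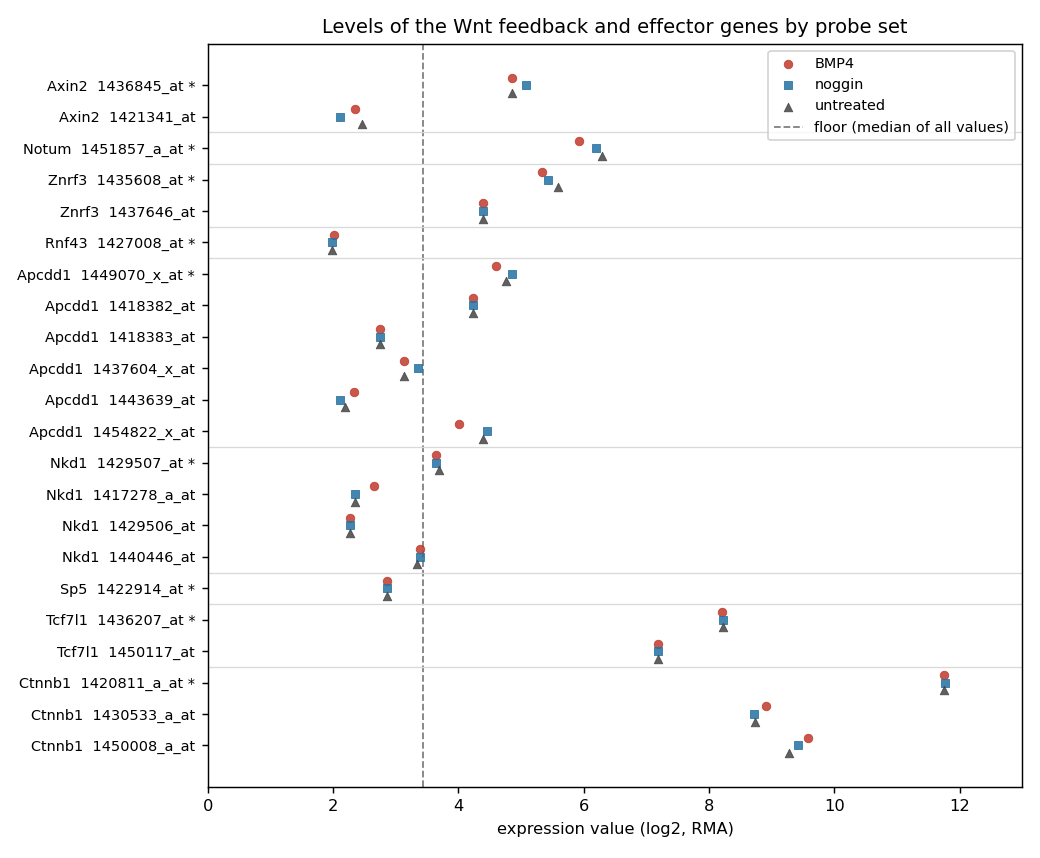
Levels of the 22 member probe sets on the BMP4 (circles), noggin (squares) and untreated (triangles) arrays, in log2 RMA values, with the 3 arrays of a probe set drawn one above the other. The asterisk marks the probe set that represents a gene and the dashed line the floor of 3.44. Rnf43 and Sp5 lie left of the line, and the largest separations of the BMP4 array above the floor are those of Notum and of an Apcdd1 probe set.

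Judged by leading probe sets, Notum stood furthest from the untreated level with BMP4 among the inhibitors, while a second probe set of Apcdd1 stood slightly further, at −0.38. Notum is a secreted carboxylesterase that removes the lipid from Wnt proteins and so inactivates them. Its 1 probe set, 1451857_a_at, measured 5.93 with BMP4, 6.20 with noggin and 6.28 without treatment. The BMP4 value was the lowest of the 3, and the noggin and untreated values lay within 0.09 of each other. With BMP4 it was 1.28-fold lower than without treatment, a difference of −0.36, and 94 of the 11594 genes (0.811%) were at least as low. With noggin the difference from untreated was −0.09, and 14.6% of genes were at least as low. In a bulk sample such as these, fewer cells that carry a transcript and less of it per cell cannot be told apart.

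Znrf3 is a membrane E3 ubiquitin ligase that removes Frizzled receptors from the cell surface and is itself held in check by R-spondins. Its first probe set, 1435608_at, measured 5.33 with BMP4, 5.43 with noggin and 5.59 without treatment. Both treated values were below the untreated one. The difference was −0.26 with BMP4, just short of the 1.2-fold limit, with 269 genes (2.32%) at least as low, and −0.16 with noggin, with 6.24% at least as low. The other probe set of Znrf3, 1437646_at, read exactly 4.40 on all 3 arrays, so the lower values rest on 1 of 2 probe sets. Rnf43, the paralogue of Znrf3 with the same activity, gave 2.01 with BMP4 and 1.99 on the other 2 arrays, all below the floor, and no difference is read from it.

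Apcdd1, a membrane glycoprotein that binds Wnt proteins and LRP co-receptors, had 6 probe sets, of which 3 were above the floor. The first, 1449070_x_at, measured 4.60 with BMP4, 4.86 with noggin and 4.76 without treatment. The second, 1454822_x_at, measured 4.02 with BMP4, 4.46 with noggin and 4.40 without treatment. On both, BMP4 was the lowest array and noggin the highest. The differences from untreated were −0.16 and −0.38 with BMP4 and 0.10 and 0.06 with noggin. The third probe set above the floor, 1418382_at, read exactly 4.23 on all 3 arrays. Both probe sets that differed carry the x suffix, with which the array maker marks probe sets whose probes may also match other transcripts.

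Axin2 encodes a scaffold of the destruction complex and is the feedback gene most often read as a reporter of Wnt activity. Its probe set above the floor, 1436845_at, measured 4.86 with BMP4, 5.08 with noggin and 4.86 without treatment. The BMP4 and untreated values were exactly equal, and the noggin value was 0.22 higher, with 199 genes (1.72%) at least as high. Its second probe set, 1421341_at, was below the floor on every array, at 2.35 with BMP4, 2.11 with noggin and 2.46 without treatment, and it ran the other way with noggin. Nkd1 encodes a cytoplasmic protein that binds Dishevelled and dampens the signal. It measured 3.65 with BMP4 and with noggin and 3.70 without treatment on the 1 of its 4 probe sets above the floor. Of its other 3, 1417278_a_at was 0.31 higher with BMP4, at 2.66 against 2.35 untreated, but below the floor.

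Sp5 is a zinc finger transcription factor and a direct target of beta-catenin and TCF factors in vertebrate embryos. Its 1 probe set read 2.85 on all 3 arrays, below the floor. Its promoter is shown beside that of Axin2 as the 2 members best known as direct TCF targets, with letters that match the TCF motif CTTTGAT or CTTTGAA, on either strand, in capitals. Each is the 250 bases before the annotated start, 5′ to 3′ on the strand of the gene, from RefSeq on build GRCm38.p6.
Sp5, chr2:70474673-70474922, plus strand: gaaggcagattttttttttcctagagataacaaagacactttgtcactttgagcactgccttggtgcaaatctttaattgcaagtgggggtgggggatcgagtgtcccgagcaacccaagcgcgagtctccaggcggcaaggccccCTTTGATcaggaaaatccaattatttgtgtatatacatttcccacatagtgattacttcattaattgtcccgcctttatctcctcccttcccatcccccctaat
Axin2, chr11:108920099-108920348, plus strand: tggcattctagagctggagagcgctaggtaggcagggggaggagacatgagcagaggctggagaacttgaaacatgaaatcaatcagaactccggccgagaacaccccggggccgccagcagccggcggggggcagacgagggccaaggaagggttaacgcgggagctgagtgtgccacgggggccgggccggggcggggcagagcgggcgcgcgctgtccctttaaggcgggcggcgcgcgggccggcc
The motif stands once in Sp5, at chr2:70474819-70474825, and its letters are not in the Axin2 window. The promoter table held 10 windows of 300 bases for 7 of the 10 members, and 1 of the 10 held the motif, as did 8.65% of all 32851 windows. The GC-rich SMAD motif GGCGCC, a palindrome that reads alike on both strands, was in 4 of the 10 windows and in 11.9% of all windows. By gene these were 3 of 7, Tcf7l1, Ctnnb1 and Tcf7, the last of which was not measured. The palindromic SMAD box GTCTAGAC was in none of the 10 and in 0.213% of all windows. These matches describe the letters only.

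Of the effectors, Tcf7l1 and Ctnnb1 could be measured, and both were above the floor. Tcf7l1 encodes the TCF factor that acts mainly as a repressor in embryonic stem cells. It measured 8.20 with BMP4 and 8.23 on both other arrays, a difference of −0.03, and its second probe set read exactly 7.18 on all 3. Ctnnb1 encodes beta-catenin, which also links cadherins to the cytoskeleton. Its leading probe set, 1420811_a_at, measured 11.74 with BMP4, 11.76 with noggin and 11.74 without treatment. The other 2 were higher with BMP4: 1450008_a_at measured 9.58 with BMP4, 9.43 with noggin and 9.27 without treatment. The third, 1430533_a_at, measured 8.91 with BMP4, 8.72 with noggin and 8.73 without treatment. The BMP4 differences of the 3 Ctnnb1 probe sets were therefore 0.00, 0.31 and 0.18, with an SD of 0.16, above the 0.13 found over all genes. The Ctnnb1 reading with BMP4 was thus equal to untreated or up to 1.24-fold higher, depending on the probe set. No single difference of the transcript is read from it.

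**Figure D2:**
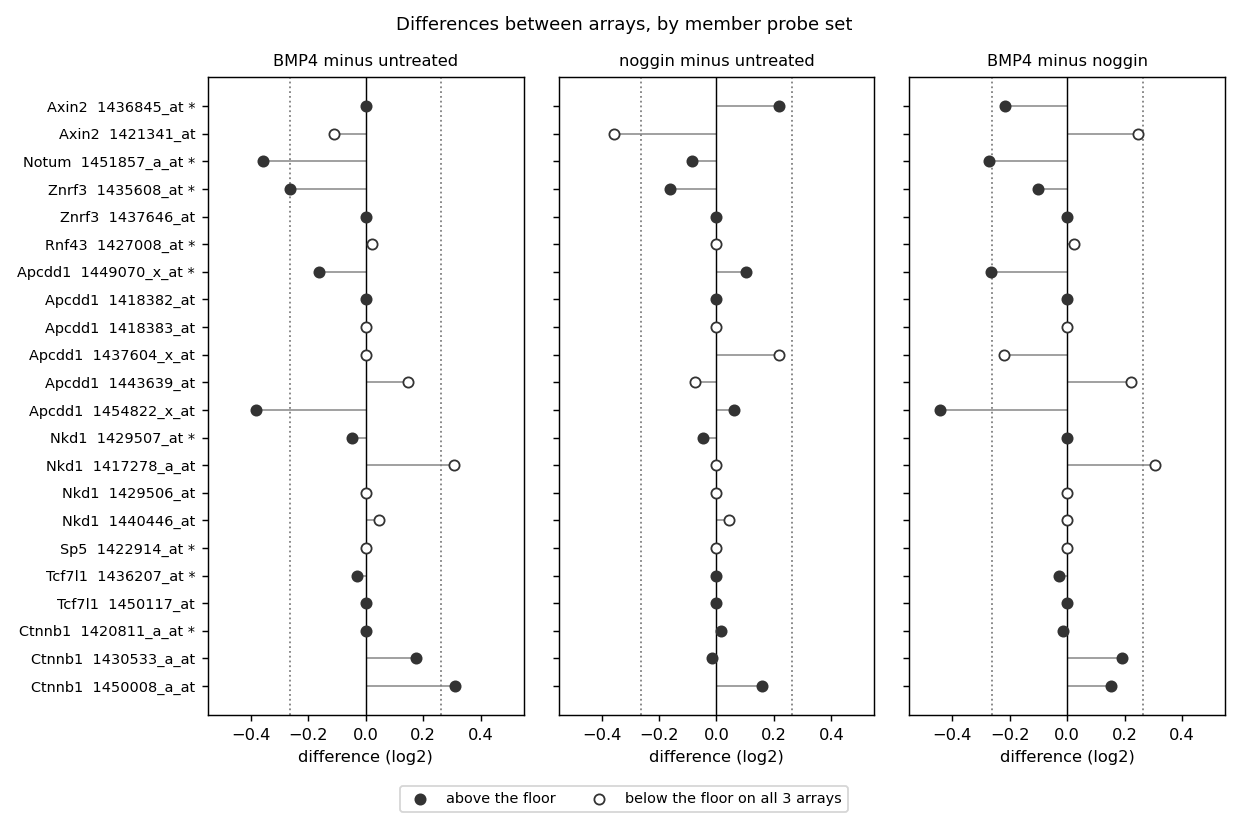
Differences in log2 value between arrays for the 22 member probe sets. Filled points are probe sets above the floor, open points are below it on all 3 arrays, and dotted lines mark 1.2-fold. With BMP4 against untreated, Notum and 1 Apcdd1 probe set lie past the lower limit, and 1 Ctnnb1 probe set and 1 Nkd1 probe set below the floor lie past the upper one.

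Counted by gene, BMP4 against untreated gave 5 lower, 0 higher and 2 exactly equal among the 7 genes above the floor. Over all 11594 genes, 35.6% were lower, 24.8% higher and 39.6% exactly equal. The median difference of the 7 was −0.05, against 0.00 over all genes. The 5 lower genes were 4 of the 5 inhibitors above the floor and Tcf7l1, and the equal ones were Axin2 and Ctnnb1. Nkd1 and Tcf7l1, at −0.05 and −0.03, lay well inside the SD of 0.13 among probe sets of a gene. By probe set, 6 of the 13 above the floor were lower, 2 higher and 5 equal. Of all probe sets above the floor 31.9% were lower, 28.9% higher and 39.2% equal. The 9 below the floor were 1 lower, 4 higher and 4 equal, and no difference is read from them. All 22 together were 7 lower, 6 higher and 9 equal, a count with no share over all probe sets beside it. Notum alone passed the 1.2-fold limit downward and no member passed it upward, where 2.25% and 1.59% of all genes did. Among all the members' probe sets above the floor, 2 of 13 were at least 1.2-fold lower and 1 of 13 at least 1.2-fold higher, against 2.1% and 3.39% of all 20122 such probe sets. No gene among the members passed 1.5-fold or 2-fold. Over all genes 0.224% were at least 1.5-fold higher and 0.0518% at least 1.5-fold lower, and 0.0949% and 0.00863% passed 2-fold in those directions.

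Other quantities also moved between this pair of arrays. Poly-A spikes are bacterial transcripts put into each RNA sample ahead of labelling. Their 24 probe sets all gave lower values with BMP4 than without treatment, with a median difference of −0.63, and the 18 for hybridisation spikes had a median of 0.01. Of 10 fibroblast markers, which feeder cells would carry, 7 were above the floor, and with BMP4 3 were lower, 2 higher and 2 equal. Past the 1.2-fold limit were 2 downward, S100a4 at −0.55 and Postn at −0.32, and 0 upward. The log2 values of the 10, also those below the floor, summed to 43.0 on the BMP4, 44.3 on the noggin and 44.4 on the untreated array. Such a sum of log2 values is not an amount of a cell type. The collagen gene Col1a1 was below the floor on all 3. Markers of other cell types also differed by more than Notum did. The endoderm genes Sox7 and Gata6 were at 0.99 and 0.52 and the mesoderm gene Eomes at 0.46. The neural genes Ncam1 and Pax6 were at −0.42 and −0.37, while Neurog3 of the same list went the other way, at 0.361. By list, 2 of 4 endoderm and 1 of 4 mesoderm markers above the floor passed the limit upward, 2 of 5 neuroectoderm markers passed it downward and 1 upward, and 0 of 4 trophoblast markers passed it. Summed in the same way, the log2 values of the endoderm list came to 23.4 with BMP4, 21.8 with noggin and 21.8 without treatment. Those of the neuroectoderm list came to 25.1, 24.4 and 25.6. The part of these, and of RNA quality, in the lower inhibitor values was not tested.

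Noggin against untreated gave 3 lower, 3 higher and 1 exactly equal among the 7 genes, where 36.1% of all genes were lower, 26.8% higher and 37% equal. The median was 0.00 for the members and for all genes. The inhibitors went both ways: Znrf3, Notum and Nkd1 were lower and Axin2 and Apcdd1 higher. None passed the 1.2-fold limit, which 1.9% of all genes passed downward and 0.897% upward. Among the members' 13 measurable probe sets 4 were lower, 5 higher and 4 equal, beside 37.7%, 25.5% and 36.8% of all such probe sets. None of the 13 passed the limit, where 2.8% of all such probe sets passed it downward and 1.08% upward. At 1.5-fold the shares of all genes were 0.069% downward and 0.00863% upward, and 0% passed 2-fold in either direction. Of the 24 poly-A spike probe sets, 23 gave lower values with noggin here, with a median difference of −0.18. Of 5 neuroectoderm markers above the floor, 3 passed the limit downward and 0 upward. They were Neurog3, Six3 and Ncam1, at −0.57, −0.39 and −0.35. Of 7 fibroblast markers 1 passed it downward, S100a4 at −0.31, and 0 upward. None of the 4 endoderm, 4 mesoderm or 4 trophoblast markers above the floor passed it. The part of the spikes and markers in the members' values was not tested.

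BMP4 against noggin sets the added ligand against its antagonist, and it uses the same BMP4 and noggin arrays as the other comparisons. Of the 7 genes, 6 were lower with BMP4, 0 were higher and 1, Nkd1, was equal, where 34.1% of all genes were lower, 33.1% higher and 32.9% equal. The median was −0.10, against 0.00 over all genes, and it was −0.03 with probe sets averaged, with plain suffix probe sets or with another floor. Notum, at 5.93 with BMP4 and 6.20 with noggin, and Apcdd1, at 4.60 with BMP4 and 4.86 with noggin, passed the 1.2-fold limit, with differences of −0.27 and −0.26, and 3.26% of all genes passed it downward and 3.37% upward. Apcdd1 was only just past the limit, at 1.201-fold. Axin2 was at −0.22 and Znrf3 at −0.10. By probe set, 7 of 13 above the floor were lower, 2 higher and 4 equal, beside 30%, 37.6% and 32.4% of all such probe sets, and 3 passed the limit downward and 0 upward, where 2.9% and 6.1% of all such probe sets did. No member passed 1.5-fold, which 0.38% of all genes passed upward and 0.138% downward, or 2-fold, which 0.112% and 0.00863% passed in those directions. The 24 poly-A spike probe sets had a median difference of −0.46 here, all with lower values for BMP4. The 7 fibroblast markers above the floor were 5 lower, 0 higher and 2 equal, with a median of −0.16, and 1 passed the limit downward. Upward, 2 of 4 endoderm and 1 of 4 mesoderm markers above the floor passed it. Of 5 neuroectoderm markers 2 passed it upward and 1 downward, and 0 of 4 trophoblast markers passed it. The part of the spikes and of all these markers in the members' values was not tested.

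**Figure D3:**
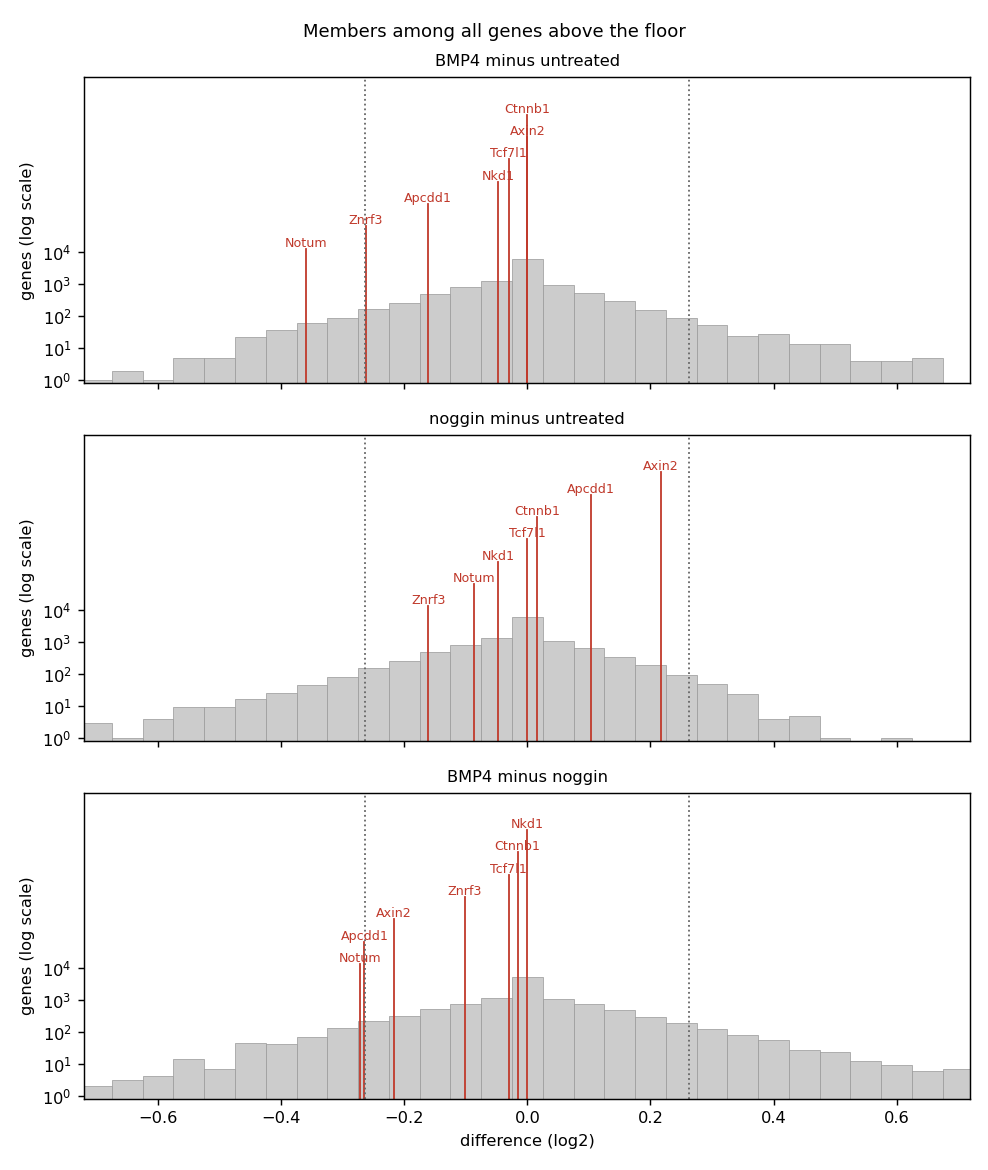
Histograms of the log2 differences of the 11594 genes above the floor (grey, number of genes on a log axis, bins of 0.05), with the 7 members above the floor as red lines whose height has no meaning. Dotted lines mark 1.2-fold, and genes beyond the range of the axis are not drawn. With BMP4 against untreated all 7 members stand at or left of 0, and with noggin against untreated they stand on both sides.

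The rest of the pathway was followed in lists by role, chosen with earlier results of these data known. Outside the members, 60 of 105 genes were above the floor. With BMP4 against untreated 15 of them were higher, 18 lower and 27 exactly equal, with a median of 0.00, and 1 passed the 1.2-fold limit in each direction. With noggin against untreated 20 were higher, 16 lower and 24 equal, and none passed it. With BMP4 against noggin 15 were higher, 20 lower and 25 equal, with 1 past the limit upward and 2 downward. The members thus had 5 of 7 genes lower with BMP4 than untreated, beside 18 of 60 in the rest of the pathway. Over all genes 35.6% were lower, 24.8% higher and 39.6% equal in that comparison. Of the 5, Nkd1 and Tcf7l1 lay inside the SD among probe sets of a gene. These counts are a description with no test. The shares of all genes stated above for each comparison also stand beside the counts by list below.

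Of the ligands, 4 of 19 Wnt genes were above the floor. Wnt7a measured 4.87 with BMP4 and with noggin and 4.76 without treatment, and Wnt4, Wnt6 and Wnt7b were exactly equal between the BMP4 and untreated arrays. Porcn, the acyltransferase that lipidates Wnt proteins in the secretory pathway, read 6.22 with BMP4, 6.20 with noggin and 6.22 without treatment. The other Wnt genes of the list were below the floor on all 3 arrays.

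Of the 15 receptors and co-receptors, 14 were above the floor, and 3 were higher, 3 lower and 8 equal with BMP4. The Frizzled gene Fzd7 measured 7.57 with BMP4 and 7.39 on both other arrays. Fzd5 measured 8.13 with BMP4, 8.41 with noggin and 8.24 without treatment, and its BMP4 minus noggin difference of −0.27 was the 1 in this list past the limit. Its other probe set above the floor gave 0.00 in that comparison. Lgr4, a receptor for the R-spondins that keep Znrf3 and Rnf43 from Frizzled, measured 8.38 with BMP4, 8.49 with noggin and 8.64 without treatment. Its differences from untreated were −0.26 with BMP4 and −0.16 with noggin, neither past the limit.

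Secreted and surface antagonists outside the members had 5 genes above the floor of 15 with a probe set. With BMP4, 2 were lower and 3 equal, and the lowest was Sfrp2, a soluble Frizzled-like protein that binds Wnts, at 4.79 with BMP4, 4.82 with noggin and 4.91 without treatment. In the list of Dishevelled and destruction complex genes, 15 of 16 were above the floor, and 4 were higher, 7 lower and 4 equal with BMP4. The kinase gene Csnk1e measured 7.83 with BMP4, 8.02 with noggin and 8.06 without treatment, and its other 2 probe sets gave BMP4 differences of 0.10 and −0.17. Apc, the tumour suppressor that holds the complex together with Axin, measured 7.63 with BMP4, 7.87 with noggin and 7.64 without treatment. All 3 Apc probe sets above the floor were higher with noggin, by 0.23, 0.34 and 0.52. With BMP4 the same probe sets differed from untreated by −0.01 on the leading one and by 0.12 and 0.36 on the others.

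Among the other TCF factors and nuclear cofactors, 13 of 16 were above the floor, and 5 were higher, 3 lower and 5 equal with BMP4. Tle1, a Groucho-type corepressor that TCF factors recruit, measured 6.86 with BMP4, 6.37 with noggin and 6.58 without treatment. It was the 1 gene of the 60 past the limit upward with BMP4, at 0.28, and it was lower by −0.21 with noggin. Its second probe set gave −0.09 and −0.03. Chd8, a chromatin remodeller that binds beta-catenin, measured 7.21 with BMP4, 7.53 with noggin and 7.52 without treatment, a BMP4 difference of −0.31, while its second probe set above the floor gave 0.31. Neither call held across the probe sets of the gene. Tcf7l2 read 3.85 on all 3 arrays, and Lef1 was below the floor.

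Of 18 other Wnt target genes, 17 had a probe set and 6 were above the floor, and with BMP4 3 were higher, 2 lower and 1 equal. Myc measured 6.84 with BMP4, 6.86 with noggin and 6.98 without treatment, Ccnd1 (cyclin D1) 7.62, 7.55 and 7.67 on the same arrays, and Mixl1, a homeobox gene of the primitive streak, 3.67, 3.44 and 3.44. All 7 pluripotency genes listed here as bound and repressed by Tcf7l1 were above the floor. With BMP4, 4 were higher, 2 lower and 1 equal, from Nr0b1 at −0.17 to Pou5f1 at 0.22, and Esrrb, a nuclear receptor gene central to that repression, measured 9.25 with BMP4, 9.27 with noggin and 9.26 without treatment. None of the 7 passed the 1.2-fold limit in any comparison.

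**Figure D4:**
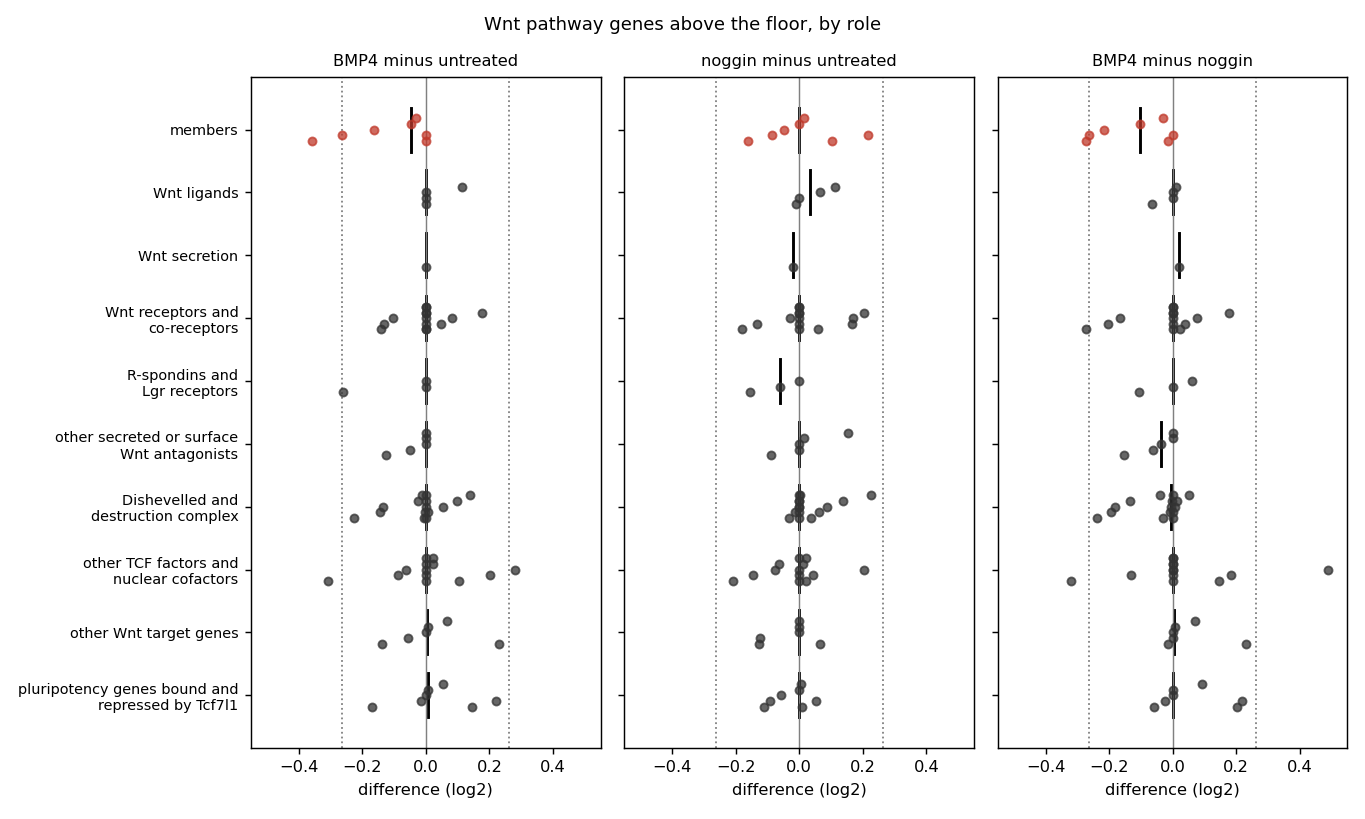
Log2 differences of the genes above the floor in the members (red) and in 9 lists of Wnt pathway genes by role (black), in 3 comparisons. Each point is a gene, the vertical bar is the list's median and dotted lines mark 1.2-fold; points are offset vertically for legibility. With BMP4 against untreated the members' median lies at −0.05 and those of the other lists between 0.00 and 0.01.

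The Wnt inhibitors were last set beside the feedback genes of 2 other pathways on the same arrays. Of 9 BMP feedback and Id genes above the floor, 8 were higher with BMP4 and 7 passed the 1.2-fold limit upward, with a median of 0.67. Id2, whose protein binds and blocks basic helix-loop-helix factors, measured 8.90 with BMP4, 4.31 with noggin and 4.80 without treatment. The inhibitory SMAD gene Smad6 measured 5.07 with BMP4 and 4.40 on both other arrays. Of 8 FGF-ERK feedback genes, 5 were higher and 3 passed the limit upward, with a median of 0.11. The phosphatase gene Dusp5 measured 7.09 with BMP4, 6.09 with noggin and 5.98 without treatment. Over all genes above the floor, 24.8% were higher with BMP4 than untreated and 1.59% passed the limit upward, with a median of 0.00. The 5 Wnt inhibitors above the floor had a median of −0.16 and none was higher. That median is the value of the leading Apcdd1 probe set, which has the x suffix. It was −0.10 over 4 inhibitors with probe sets averaged and −0.02 over 4 with plain suffix probe sets, where Notum drops out. With 1 array per condition the difference between the 3 sets was not tested.

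**Figure D5:**
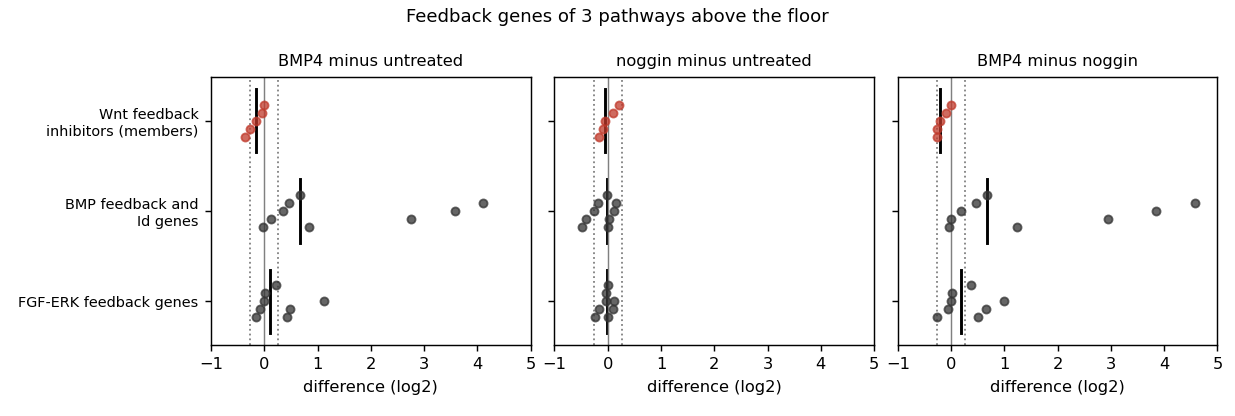
Log2 differences of the feedback genes above the floor in the Wnt (red, 5 members), BMP (9 genes with the Id genes) and FGF-ERK (8 genes) pathways, with the median of each set as a vertical bar and 1.2-fold as dotted lines. With BMP4 against untreated the medians were −0.16, 0.67 and 0.11.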

How the data were processed

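Expression was measured on 1 Affymetrix array each for BMP4, noggin and untreated cells. The authors deposited log2 expression values per probe set, made with RMA per the submitters' processing notes, which corrects background, equalises the arrays' distributions and summarises probes by median polish. No version, setting or genome build is given in the sources used here. A change in total RNA per cell would be removed by the quantile step, and median polish over 3 arrays can give exactly equal values: 26.1% of probe sets were equal within 1e-06 on all arrays.

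From these values differences were computed without further normalization, in Python 3.11.15 with pandas 2.3.3. Of 45101 probe sets, 34945 were paired with 1 gene symbol, 932 with several and 9160 with none, and 64 were controls. A gene took its probe set of highest mean, and the floor was the median of all values. All members were named whatever their values. From each pathway list came the gene with the largest difference in each direction, and from all lists the genes past 1.5-fold. Some of these are printed. A few set genes of other circuits and markers were added. Chosen after their values were seen were Wnt6, Tcf7l2, Lef1, Esrrb, Axin1 and Col1a1. The same holds for the markers S100a4, Postn, Gata6, Eomes, Ncam1, Pax6 and Six3. Members and lists were chosen with earlier results of these data known. The arithmetic was tested on simulated differences. The number of arrays limits precision, and no p-value is given.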

Additional observations from a re-analysis of the deposited data

How the results depend on the processing

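With 1 array per condition no replicate could be left out. No paired analysis was possible because each condition has 1 array. The alternatives changed the probe set rule, the floor, the centring or the size limit. Under 6 alternatives the members' median difference ran between −0.06 and −0.03 for BMP4 minus untreated, −0.03 and 0.01 for noggin minus untreated, and −0.10 and −0.03 for BMP4 minus noggin. These medians are smaller than the SD among probe sets of a gene, so that SD is no measure of their stability. Centring on the median changed nothing, since the median of all genes was 0.00. Notum was at −0.36 for BMP4 minus untreated under the 5 alternatives that keep its probe set.

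With probe sets of a gene averaged, 6 members were above the floor, 1 was higher with BMP4 than untreated and 2 were higher with BMP4 than with noggin, and 1 was past the limit downward in BMP4 minus noggin. Averaging also gave Znrf3 −0.13 and Ctnnb1 0.16 for BMP4 minus untreated, and Axin2 −0.07 for noggin minus untreated. With plain suffix probe sets alone Notum and Ctnnb1 drop out and Apcdd1 is at 0.00. Of 5 members then above the floor, 3 were lower in BMP4 minus untreated and 3 in BMP4 minus noggin, 0 past the limit in both, and 1 was higher in noggin minus untreated. With no floor, Rnf43 adds 1 higher member in BMP4 minus untreated and 1 in BMP4 minus noggin, and the Wnt ligands' noggin minus untreated median was −0.080. With the floor at the 75th percentile 3 members were left: 2 were lower in BMP4 minus untreated, 1 lower and 1 higher in noggin minus untreated, and 3 lower in BMP4 minus noggin, 1 of them past the limit. At that floor the R-spondin list (1 gene) had a BMP4 minus untreated median of −0.26, the other Wnt target genes a noggin minus untreated median of −0.12, the BMP feedback genes medians of 0.84, −0.19 and, for BMP4 minus noggin, 1.24, and the FGF-ERK genes 0.018 for BMP4 minus noggin. Loess correction left 1 member past the limit in BMP4 minus noggin. At 1.5-fold and at 2-fold, 0 members were past the limit. Shares over all genes were not computed under the changed probe set rules, floors or loess correction, so those counts stand without a background. Means over members were 1.43, −0.12 and 1.54 for the BMP feedback genes in the 3 comparisons and 0.25 for the FGF-ERK genes in BMP4 minus untreated.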

Other observations

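Many probe sets shared their exact value with other probe sets of the same array. The BMP4 array held 15626 distinct values among 45101 probe sets, the noggin array 18542 and the untreated array 14934, and 69.8%, 64.9% and 71.6% of probe sets shared their value with another. Of the 22 member probe sets, 6 had 1 value on all 3 arrays (27.3%, against 26.1% of all probe sets). The value 4.40 of the second Znrf3 probe set stood for 53 other probe sets on the BMP4, 50 on the noggin and 101 on the untreated array. The Axin2 value of 4.86 was shared by 28 others on the BMP4 array and 72 on the untreated array, while its noggin value was shared by none. The Notum value was shared by 0 others on the BMP4, 22 on the noggin and 0 on the untreated array. For the leading Apcdd1 probe set these numbers were 74, 0 and 84, and for the leading Znrf3 probe set 34, 0 and 0. Exact equality between arrays is thus common in this table and is not a measurement that a transcript is unchanged.

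In the destruction complex, Apc and Axin2 were 0.23 and 0.22 higher with noggin than untreated on their leading probe sets, and stood at −0.01 and 0.00 with BMP4. The other 2 Apc probe sets above the floor were higher with both treatments, by 0.12 and 0.36 with BMP4 and by 0.34 and 0.52 with noggin. For Apc, a rise with noggin alone thus rests on the leading probe set. Axin1 was 0.06 higher with noggin and 0.05 higher with BMP4. Of the 15 genes above the floor in the Dishevelled and destruction complex list, 6 were higher, 2 lower and 7 equal with noggin. The second Axin2 probe set, below the floor, was lower with noggin, at −0.36. Apc, Axin1 and Axin2 were set side by side after their values were seen.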
